A study of Mus musculus with 18 samples.

Results

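The comparison described here sets kidney taken 7 days after a single folic acid injection against untreated kidney. It rests on 6 of the 18 RNA-seq libraries of a mouse time course, 3 at day 7 and 3 untreated, chosen by their labels. Of 37991 gene identifiers, 16824 had enough reads to be tested. All mice were male Balb/c animals. The day 7 mice received 250 mg/kg folic acid intraperitoneally in sodium bicarbonate solution, and the untreated mice received nothing. No group with the bicarbonate alone was analysed here, so effects of folic acid and of its vehicle cannot be told apart. The remaining libraries, 3 each at days 1, 2, 3 and 14 after the same dose, entered the fit and give the neighbouring times. Cdh11 and Mrc1 appear in the title of the series as fibrosis biomarkers, and the design follows kidney RNA from before treatment to day 14. Whether the 3 libraries of a group stand for 3 animals is not given in the labels. The p-values therefore measure library-to-library spread, part of which may be technical.

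Folic acid at a high dose injures the renal tubule, above all the proximal tubule, the segment that takes back most of the filtered sugar, phosphate, amino acids and protein and that burns fatty acids to pay for it. Injured tubule cells lose those transport and metabolic genes and switch on a set of repair and injury genes. Monocytes and macrophages then enter the tissue and fibroblasts lay down collagen, which can end in repair or in scarring. RNA from whole kidney mixes all of these cells, so fewer cells of a type and less RNA per cell cannot be told apart.

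Reads assigned to genes numbered 22.2 to 47.3 M (mega) in the untreated libraries and 20.7 to 24.2 M at day 7, and 19471 to 20659 genes had a read in each of the 6. Genes of the mitochondrial genome took 72.3 ± 3.22% of gene reads in untreated kidney and 64.5 ± 1.59% at day 7 (mean ± SD, n = 3 libraries, the form used for every mean given here). The difference was -7.78 percentage points, and the groups did not overlap (exact permutation test, two-sided, p = 0.1, the smallest that 3 against 3 allows). Without mitochondrial genes in the fit 1265 genes were called. Levels are given in CPM, a gene's counts per M gene reads of the library after TMM scaling, a correction for libraries in which a few genes take a large share. Folds and log2 fold changes are those fitted by edgeR with their standard error (SE), and a gene was called at a Benjamini-Hochberg adjusted p under 0.05. The proximal tubule defining markers Slc34a1, Lrp2, Cubn, Slc5a2, Slc5a12, Slc22a6 and Kap were present in all 6 libraries. Acta1 and Ckm, the defining markers of muscle, had no read, and neither did Cpa1, 1 of the 2 of pancreas. The other, Cela1, had 1571 reads over the untreated libraries and 666 over those at day 7. It was called lower (log2 change of -1.48, adjusted p = 0.0362). The call of Cela1 was lost by library totals (adjusted p = 0.215) and without any 1 of the 6 libraries (0.0521 to 0.164).

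Of the 16824 genes tested, 1298 were called (7.72%), 651 higher at day 7 (3.87%) and 647 lower (3.85%). The 2 directions differed in size and in level. The median fold was 6.20 among genes that rose and 2.91 among genes that fell, and 267 genes rose at least 8-fold against 52 that fell so far. Genes that rose had a median of 9.01 CPM at day 7, whereas genes that fell had a median of 56.6 CPM in untreated kidney. For 1253 of the 1298 the 3 day 7 values lay wholly above or below the 3 untreated ones, as they did for 4795 of all genes tested (28.5%). Of the genes called, 620 of those higher and 611 of those lower were protein coding. The balance of directions depends on the scaling: by library totals alone 2390 genes were higher and 175 lower, so 93.2% of calls were higher against 50.2% with TMM. That setting raised the median gene by 0.67 on the log2 scale, so every fall below is relative to the TMM reference.

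**Figure D1:**
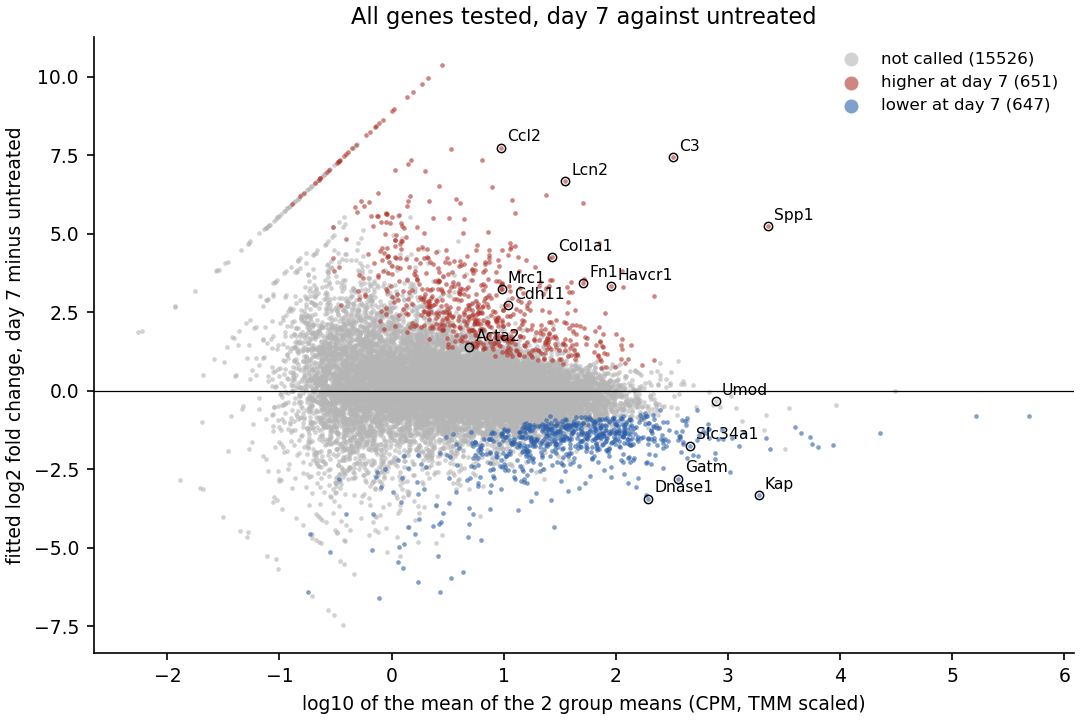
Each point is 1 of the genes tested, with the log10 of the mean of the 2 group means in CPM on the horizontal axis and the fitted log2 fold change, day 7 minus untreated, on the vertical axis; 3 genes with no read in the 6 libraries are not drawn. Red points are the 651 genes higher at day 7 and blue points the 647 genes lower, and the red points reach further from 0 while the blue points sit further to the right.

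Among genes that mark an injured or dedifferentiated tubule, Havcr1 (ENSMUSG00000040405), which encodes kidney injury molecule 1, a receptor for dying cells, stood at 10.4, 23.3 and 15.5 CPM in the untreated libraries and at 148, 144 and 205 CPM at day 7. All 3 day 7 values lay above all 3 untreated values, a 10.1-fold rise (log2 change of 3.33 with an SE of 0.35, adjusted p = 1.92e-05). Spp1, the secreted phosphoprotein osteopontin, had 98.4, 131 and 121 CPM untreated and 5989, 3724 and 3575 CPM at day 7, a rise of 38.0-fold (log2 change of 5.25 with an SE of 0.49, adjusted p = 5.59e-06). Replicate 1 was the highest of the day 7 libraries for Spp1 and the groups lay far apart. Lcn2, a lipocalin that binds bacterial iron carriers, rose 103-fold, from 0.600 ± 0.582 to 69.9 ± 28.0 CPM (adjusted p = 0.000342), and its log2 change of 6.69 became 8.02 without untreated replicate 2. Cd44, the hyaluronan receptor, went from 0.544, 0.594 and 0.752 CPM to 53.2, 46.8 and 41.8 CPM, 75.2-fold (log2 change of 6.23 with an SE of 0.70, adjusted p = 3.85e-05), with narrow spread in both groups. Vcam1, an adhesion molecule for leukocytes that injured tubule also makes, rose 63.7-fold, from 1.59 ± 0.148 to 101 ± 37.7 CPM (adjusted p = 1.71e-06).

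Of 40 tested genes on the tubular injury list, 26 rose, 1 fell and 13 did not pass, for a median log2 change of 2.04 against 0.06 over all genes tested. The list also held Clu, the extracellular chaperone clusterin, up 9.79-fold from 21.6 ± 2.98 to 212 ± 45.7 CPM, and Cp, the copper-carrying ferroxidase ceruloplasmin, up 14.0-fold from 15.2 ± 3.85 to 213 ± 46.0 CPM (adjusted p = 1.71e-06). Cd24a, a surface glycoprotein of immature tubule cells, rose 2.73-fold to 202 ± 46.9 CPM, and the intermediate filament gene Vim rose 4.22-fold to 15.8 ± 4.92 CPM. Cdkn1a, the cell cycle inhibitor p21 that rises after acute injury, did not pass at day 7, with 6.52, 1.83 and 1.38 CPM untreated and 7.30, 2.28 and 4.44 CPM at day 7 (adjusted p = 0.723). Its groups overlapped, with untreated replicate 1 almost as high as the highest day 7 library. The 1 member that fell was Itgb6, the beta subunit of an integrin that activates TGF-beta, from 144 ± 9.65 to 79.7 ± 19.4 CPM. The call of Itgb6 was lost by library totals and without untreated replicate 1, 2 or 3 or day 7 replicate 1 or 3 (adjusted p = 0.0587 to 0.129 for those 5).

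**Figure D2:**
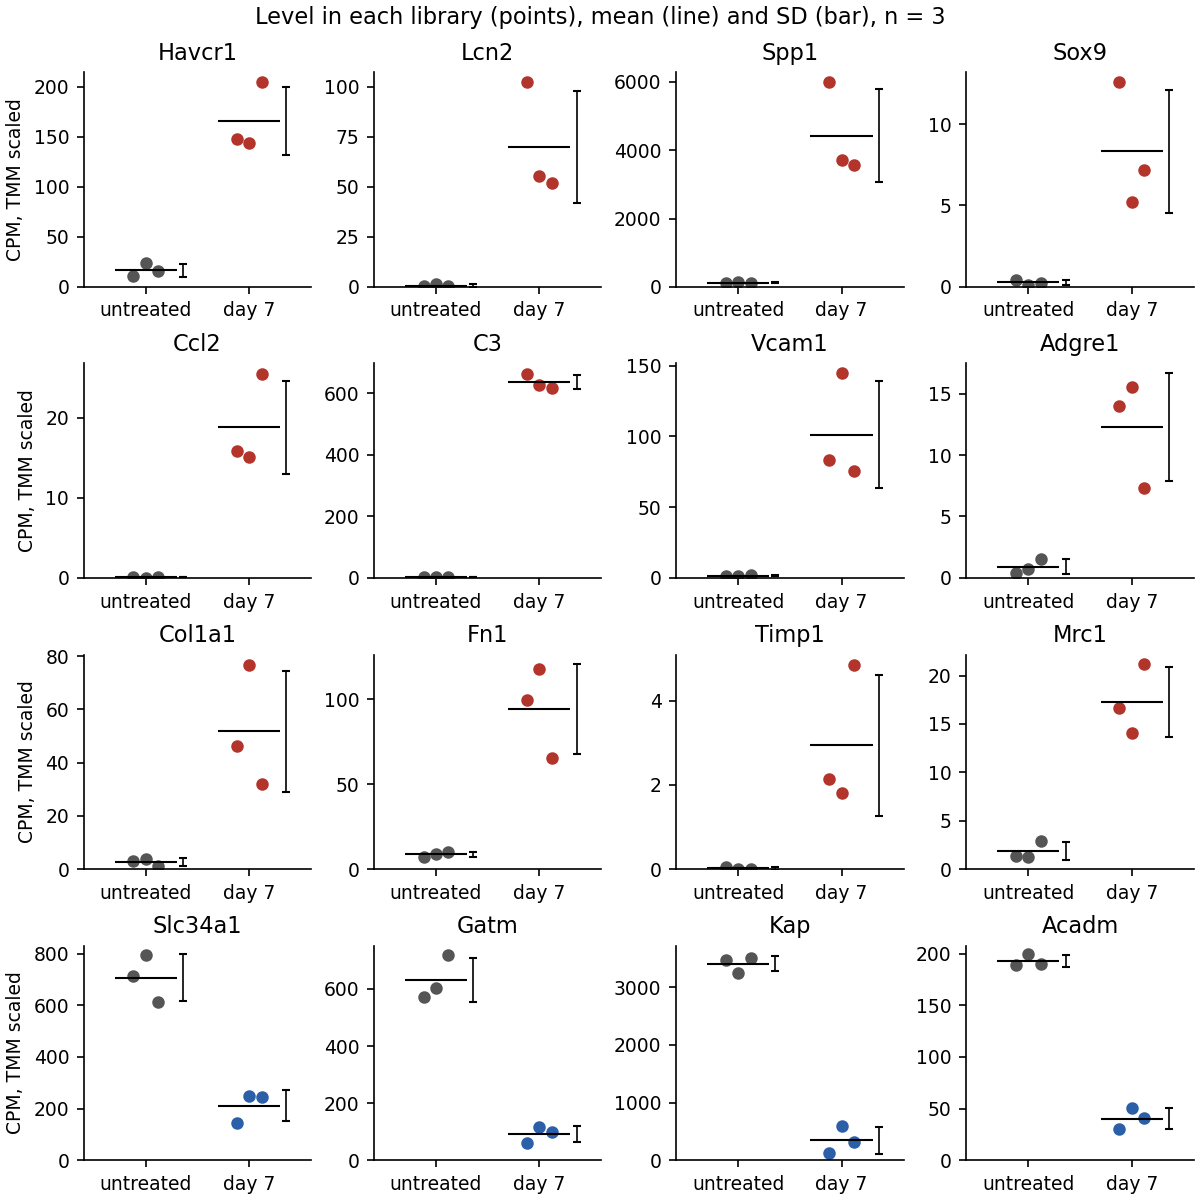
Each panel shows 1 gene, with the level in CPM on a linear axis from 0; points are the 3 untreated libraries (grey) and the 3 day 7 libraries (red for genes called higher, blue for genes called lower), lines are means and bars are SD. The 2 groups are separate in all 16 panels, as for C3 at 3.65 ± 0.528 against 637 ± 24.1 CPM and Kap at 3412 ± 138 against 342 ± 236 CPM.

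Transcription factors of the developing tubule changed in part. Sox9, a factor of nephron progenitors that repairing tubule cells switch on again, stood at 0.435, 0.119 and 0.251 CPM untreated and 12.6, 5.24 and 7.18 CPM at day 7, a 32.8-fold rise (log2 change of 5.04 with an SE of 0.72, adjusted p = 0.000360). Replicate 1 was again the highest at day 7, and the groups did not overlap. Sox4 rose 11.2-fold from 0.438 ± 0.333 to 4.89 ± 1.57 CPM, and its log2 change of 3.49 became 4.21 without untreated replicate 1. Of 29 tested genes on the list of kidney development transcription factors, 5 rose (Sox9, Sox4, Pax8, Myc and Klf4) and none fell, for a median log2 change of 0.04. The count was 3 without untreated replicate 1, 2 or 3 or day 7 replicate 2, and 2 without day 7 replicate 1.

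Of 36 tested members of the list of cytoskeleton, keratins, annexins and S100 proteins 18 rose, 18 did not pass and none fell, for a median log2 change of 1.69. Krt18, a keratin of simple epithelia, rose 6.36-fold from 1.71 ± 0.745 to 11.1 ± 5.63 CPM. The tubulin gene Tubb2b rose 9.84-fold from 0.874 ± 0.146 to 8.68 ± 4.41 CPM and Tmsb10, an actin-binding thymosin, rose 9.45-fold to 3.40 ± 0.565 CPM. Without day 7 replicate 1 the count of the list was 11. Krt20, a keratin absent from most healthy tubule, had 0.109, 0.238 and 0 CPM untreated and 9.57, 4.45 and 5.20 CPM at day 7, a 44.9-fold rise. Its call was lost without untreated replicate 1 (adjusted p = 0.0596) or 3 (adjusted p = 0.0547) and in limma-voom (0.104), and without untreated replicate 2 its log2 change of 5.49 became 6.69.

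Of 48 tested transporters of the proximal tubule, 29 fell, 1 rose and 18 did not pass, for a median log2 change of -1.45; by library totals 16 fell. Slc34a1, the main sodium-phosphate cotransporter, had 712, 796 and 614 CPM untreated and 142, 247 and 243 CPM at day 7, 3.35-fold lower (log2 change of -1.75 with an SE of 0.28, adjusted p = 0.000856). Lrp2, the endocytic receptor megalin that takes up filtered protein, went from 2180.1, 1821 and 1748 CPM to 475, 564 and 678 CPM, 3.35-fold lower (log2 change of -1.74 with an SE of 0.24, adjusted p = 0.000268). In both genes the highest day 7 library was well under the lowest untreated one. Slc7a13, an acidic amino acid transporter of the late proximal tubule, had 363, 282 and 359 CPM untreated and 14.9, 54.0 and 32.2 CPM at day 7, 9.93-fold lower (log2 change of -3.31 with an SE of 0.46, adjusted p = 0.000302), with day 7 replicate 1 the lowest. Slc22a30, of the organic anion transporter family, was 6.81-fold lower (adjusted p = 0.00262) and Slc27a2, which takes up fatty acids and joins them to coenzyme A, was 2.90-fold lower (adjusted p = 0.00321).

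The exception among these transporters was Slc13a1, a sodium-sulfate cotransporter, with 136, 138 and 166 CPM untreated and 350.5, 267 and 261 CPM at day 7. It rose 2.00-fold (log2 change of 1.00 with an SE of 0.23, adjusted p = 0.0124), and the call was lost without untreated replicate 1 or 2 or day 7 replicate 1 (adjusted p = 0.0604, 0.0573 and 0.0722). Slc34a2, a sodium-phosphate cotransporter best known from lung and gut, also moved opposite to Slc34a1: it had 2.28, 2.43 and 5.89 CPM untreated and 34.6, 28.7 and 11.6 CPM at day 7, a 7.14-fold rise (log2 change of 2.83 with an SE of 0.54, adjusted p = 0.00306). On the list of phosphate, calcium and vitamin D genes 3 of 25 rose (Slc34a2, Slc20a1 and Trpv6) and 3 fell (Slc34a1, Kl and Vdr), for a median log2 change of -0.27, or 0.39 by library totals. Without untreated replicate 1 only 1 of its genes rose. Kl, which encodes klotho, the coreceptor of a phosphate-lowering hormone, went from 487, 389 and 432 CPM to 72.5, 158 and 157 CPM, 3.38-fold lower (log2 change of -1.76 with an SE of 0.30, adjusted p = 0.00148).

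Of 54 tested genes on the proximal tubule enzyme list 35 fell, 1 rose and 18 did not pass, at a median log2 change of -1.47. The list also holds Kap, which is not an enzyme. Kap, the androgen-regulated kidney protein that is among the most abundant messages of the mouse proximal tubule, had 3474, 3253 and 3508 CPM untreated and 122, 592 and 314 CPM at day 7. It fell 9.96-fold (log2 change of -3.32 with an SE of 0.53, adjusted p = 0.000858), and without day 7 replicate 2, the highest of the 3, the log2 fold change was -3.97. Gatm, the first enzyme of creatine synthesis, had 573, 604 and 719 CPM untreated and 60.0, 115 and 97.8 CPM at day 7, 6.94-fold lower (log2 change of -2.79 with an SE of 0.39, adjusted p = 0.000302). Ggt1, which splits glutathione at the brush border, fell 3.66-fold to 36.1 ± 8.54 CPM and Cltrn, the partner protein of brush border amino acid transporters, fell 4.54-fold to 277 ± 91.4 CPM. Dnase1, a secreted nuclease, was outside these lists and fell 10.8-fold, from 426, 298 and 336 CPM to 28.1, 47.9 and 22.3 CPM (log2 change of -3.43 with an SE of 0.44, adjusted p = 0.000171). The member of the enzyme list that rose was Cyp4a14, a fatty acid hydroxylase, from 1.27 ± 0.546 to 11.9 ± 8.88 CPM. Day 7 replicate 2 was low for it, and its call was lost without any of the 6 libraries but day 7 replicate 2 (adjusted p = 0.065 to 0.12). Without day 7 replicate 1, 17 genes of the proximal tubule enzyme list fell, and by library totals 16 did.

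To show the start regions of genes from both directions, the RefSeq promoters (build GRCm38.p6) of C3, Kap and Gatm are printed below. They run 5′ to 3′ on the gene's strand, from 250 bases before to 50 bases after the annotated start. These 3 genes were chosen after their values were seen. Capitals mark matches to any of 7 motifs, on either strand, whose letters and shares follow the sequences.
C3, chr17:57228087-57228386, minus strand: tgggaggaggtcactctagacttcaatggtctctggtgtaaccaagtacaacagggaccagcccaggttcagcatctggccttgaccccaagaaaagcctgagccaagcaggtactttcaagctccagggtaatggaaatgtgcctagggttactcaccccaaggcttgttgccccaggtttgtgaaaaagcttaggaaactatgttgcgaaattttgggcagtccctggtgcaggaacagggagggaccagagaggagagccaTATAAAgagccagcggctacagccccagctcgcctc
Kap, chr6:133853618-133853917, minus strand: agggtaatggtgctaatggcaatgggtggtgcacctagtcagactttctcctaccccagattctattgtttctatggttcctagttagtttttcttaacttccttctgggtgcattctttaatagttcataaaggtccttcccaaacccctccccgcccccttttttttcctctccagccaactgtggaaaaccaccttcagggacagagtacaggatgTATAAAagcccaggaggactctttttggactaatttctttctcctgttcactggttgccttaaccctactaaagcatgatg
Gatm, chr2:122611228-122611527, minus strand: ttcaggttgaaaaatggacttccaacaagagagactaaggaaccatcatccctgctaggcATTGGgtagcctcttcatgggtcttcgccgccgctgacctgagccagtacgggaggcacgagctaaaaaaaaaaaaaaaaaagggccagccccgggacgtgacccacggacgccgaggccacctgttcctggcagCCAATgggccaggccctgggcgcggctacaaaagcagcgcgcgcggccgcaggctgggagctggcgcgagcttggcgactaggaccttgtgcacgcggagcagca
The Kap window held TATAAA starting 31 bases before the annotated start. The C3 window held it 14 bases after the start. Gatm held CCAAT letters 190 and 55 bases before the start and no TATAAA. Among 14805 windows of tested genes the TATA box letters TATAAA were in 7.92% of windows, and the CCAAT box in 37.3%. The AP-1 motif TGANTCA was in 5.50% of windows, and the TEAD motif GGAATG was in 12.7% of them. The cell cycle homology region, searched as TTTGAA here, was in 12.9% of windows. The HNF1 half-site, searched as GTTAAT here, was in 5.03% of windows. The HNF4 core CAAAGTCCA was in 0.453% of windows. No share is given for the genes called, because the table matched 74.0% of the genes that rose and 74.3% of those that fell, too few for such a check. A match describes letters and does not show that a factor binds.

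Beyond the proximal tubule, fewer genes of the other nephron segments were called. On the list for the loop of Henle and distal convoluted tubule 5 of 35 fell (Egf, Cldn10, Fxyd2, Kl and Klk1) and none rose, for a median log2 change of -0.35, or 0.33 by library totals, where 4 rose and 3 fell. The count was 3 without any 1 of the 6 libraries. Egf, the growth factor precursor made in the distal tubule, had 282, 329 and 307 CPM untreated and 38.9, 61.1 and 86.3 CPM at day 7, 4.93-fold lower (log2 change of -2.30 with an SE of 0.42, adjusted p = 0.00263). Cldn10, a tight junction protein of the loop, fell 3.51-fold to 24.7 ± 7.22 CPM. Umod, the most abundant urinary protein and the marker of the thick ascending limb, had 705, 934 and 967 CPM untreated and 739, 650.1 and 676 CPM at day 7, and did not pass (log2 change of -0.34 with an SE of 0.29, adjusted p = 0.565). Its groups overlapped. On the principal cell list 2 of 22 rose (Krt8 and Krt18) and 2 fell (Aqp4 and Nccrp1); without day 7 replicate 1 it was 1 each way, and 1 fell without untreated replicate 1 or 2 or day 7 replicate 2 or 3. Of 19 intercalated cell genes none was called by edgeR, DESeq2 or limma-voom, and 2 had an unadjusted p under 0.05 in edgeR. Aqp2, the water channel of the collecting duct, did not pass and varied from 6.39 to 53.2 CPM among the untreated libraries (adjusted p = 0.665).

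Of 20 podocyte genes 4 fell (Podxl, Clic5, Magi2 and Vegfa), 16 did not pass and none rose, at a median log2 change of 0.10. Only Vegfa, the endothelial growth factor, was called without each of the 6 libraries, from 92.0, 84.0 and 75.4 CPM to 32.6, 35.8 and 35.3 CPM (log2 change of -1.28 with an SE of 0.20, adjusted p = 0.000858). By library totals 5 podocyte genes rose and none fell (adjusted p = 0.102 for Vegfa), and the count of genes that fell with TMM was 1 without untreated replicate 2, day 7 replicate 1 or day 7 replicate 3 and 2 without untreated replicate 3 or day 7 replicate 2. Of 25 endothelial genes 24 did not pass and 1 fell, near the 3.85% that fell among all genes tested. That gene, Kdr, the receptor of the growth factor Vegfa, fell 3.28-fold to 6.43 ± 2.27 CPM. Its call was lost by library totals (adjusted p = 0.125) and without untreated replicate 2 (0.0849) or day 7 replicate 1 (0.084). Summed over 7 defining markers, the proximal tubule ranged from 6874 to 7612 CPM in untreated kidney and from 1066 to 1791 CPM at day 7. Marker sums of the loop of Henle went from 1053 to 1660 CPM untreated to 963 to 996 CPM at day 7. Those of the intercalated cell went from 34.7 to 49.3 CPM to 15.2 to 27.5 CPM, and those of the podocyte from 76.8 to 135 CPM to 57.9 to 64.9 CPM. With TMM scaling all day 7 sums of these 3 cell types lay below all untreated ones, and sums by library totals were not compared. None of the 2 loop of Henle or 3 intercalated cell markers was called alone. Of the 3 podocyte markers 1 was called (Podxl, lower), and Nphs1 had a positive log2 change of 0.93 and did not pass. The 2 distal convoluted tubule markers ranged from 139 to 164 CPM and from 163 to 216 CPM. Endothelial marker sums overlapped between the groups.

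**Figure D3:**
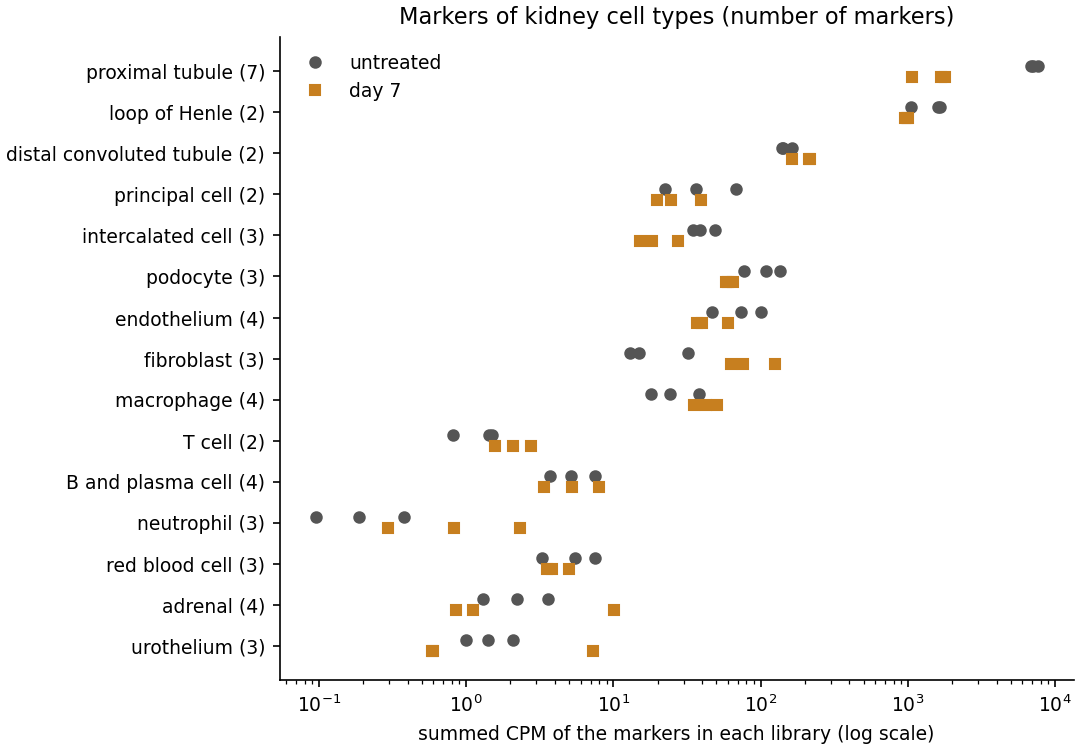
Each row is a cell type with the number of its defining markers in parentheses, and the horizontal axis is their summed CPM in each library on a log scale, with circles for untreated and squares for day 7. The proximal tubule sums at day 7 lie below all untreated sums and the fibroblast sums lie above them, while the sums of principal cell, endothelial and red blood cell markers overlap.

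Of 48 tested genes of fatty acid oxidation, 21 fell, 27 did not pass and none rose, for a median log2 change of -0.95. Acadm, the medium-chain acyl-CoA dehydrogenase of the mitochondrion, had 189, 199 and 189.7 CPM untreated and 30.0, 50.3 and 40.5 CPM at day 7, 4.78-fold lower (log2 change of -2.26 with an SE of 0.33, adjusted p = 0.000404). Acox2, a peroxisomal oxidase, fell 5.83-fold to 10.3 ± 5.20 CPM, Cyp4a12a, a fatty acid hydroxylase of male kidney, fell 6.75-fold to 23.5 ± 3.90 CPM, and Acsm2, a medium-chain acyl-CoA synthetase, fell 5.97-fold to 301 ± 106 CPM. The count on the fatty acid oxidation list was 13 without untreated replicate 2, 12 without day 7 replicate 1 and 8 by library totals.

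On the respiratory chain and TCA cycle list all 53 tested genes had a negative fold change with TMM, of which 19 fell and 34 did not pass, at a median log2 change of -0.86. By library totals none was called and the median was -0.19. The count on that list was 8 without untreated replicate 1, 9 without untreated replicate 2, 3 without day 7 replicate 1 and 5 without day 7 replicate 2. Ndufa4, a subunit of the respiratory chain, passed with each library left out, from 144 ± 16.3 to 55.5 ± 7.35 CPM (adjusted p = 0.00477, and 0.129 by library totals). Of 32 tested genes of the mitochondrial genome, 19 fell and none rose with TMM, and 11 fell and none rose by library totals.

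Of 35 genes of gluconeogenesis and glycolysis 12 fell, 1 rose and 22 did not pass, at a median log2 change of -0.51, or 0.16 by library totals. Fbp1, which commits carbon to glucose synthesis, had 257, 194 and 181 CPM untreated and 37.5, 60.4 and 49.7 CPM at day 7, 4.29-fold lower (log2 change of -2.10 with an SE of 0.36, adjusted p = 0.00143). Slc16a1, a lactate carrier, fell 6.99-fold to 3.77 ± 0.807 CPM. G6pc, the last enzyme of glucose release, was 3.28-fold lower (adjusted p = 0.0342), and its call held without untreated replicate 2 but was lost without each of the other 5 libraries (adjusted p = 0.0568 to 0.136). The list's count of genes that fell was 7 without day 7 replicate 1 or 3, 6 without day 7 replicate 2 and 4 by library totals.

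Of 45 genes of amino acid and creatine metabolism 16 fell, 29 did not pass and none rose, for a median log2 change of -1.14. Odc1, the first enzyme of polyamine synthesis, went from 231, 177 and 198 CPM to 33.9, 29.6 and 33.4 CPM, 6.26-fold lower (log2 change of -2.65 with an SE of 0.35, adjusted p = 0.000210). Of the amino acid and creatine genes, 9 fell without day 7 replicate 1 and 6 by library totals.

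The injected agent is itself the parent vitamin of the folate pathway. Of 32 tested genes of folate and one-carbon metabolism 9 fell and 1 rose, for a median log2 change of -0.54, or 0.14 by library totals. Folr1, the folate receptor that recovers folate from the filtrate, had 95.4, 95.6 and 108 CPM untreated and 18.8, 20.8 and 28.2 CPM at day 7, 4.41-fold lower (log2 change of -2.14 with an SE of 0.28, adjusted p = 0.000192). Ftcd, which passes histidine carbon to folate, fell 9.26-fold from 13.7 ± 2.82 to 1.48 ± 0.616 CPM. Dmgdh, a folate-linked mitochondrial dehydrogenase, fell 3.74-fold to 7.04 ± 1.64 CPM. Mthfd2, the mitochondrial folate enzyme of growing cells, went the other way, from 0.272, 0.0238 and 0.0626 CPM to 1.94, 0.820 and 1.42 CPM, a 12.4-fold rise (adjusted p = 0.00626). Its log2 fold change of 3.63 became 5.08 without untreated replicate 1 and 2.99 without untreated replicate 2. The count of folate genes that fell was 4 without day 7 replicate 1 and 3 by library totals.

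Detoxifying and antioxidant genes fell in part. Of 31 genes of cytochrome P450 and conjugation 13 fell and 1 rose, for a median log2 change of -0.69; 8 fell without day 7 replicate 1. Ugt2b38, a glucuronosyltransferase, fell 5.45-fold to 81.9 ± 19.8 CPM. Of 33 NRF2 targets and glutathione genes 8 fell and none rose, for a median log2 change of -0.62, or 0.06 by library totals. Cat, the catalase that removes hydrogen peroxide, went from 579, 487 and 551 CPM to 209, 203 and 192 CPM, 2.68-fold lower (log2 change of -1.42 with an SE of 0.24, adjusted p = 0.00121), and its 3 day 7 values were close together. On the NRF2 list 5 genes fell without day 7 replicate 1 or 2 and 2 by library totals. Iron and heme genes went both ways, with 4 of 25 lower and 2 higher, for a median log2 change of 0.20. With 1 of the 6 libraries left out 1 to 4 were lower, and by library totals 1 was lower and 5 higher. Among those lower with TMM, Fth1, the ferritin heavy chain, fell 2.90-fold from 1220.5 ± 351 to 421 ± 46.1 CPM (adjusted p = 0.00238). In sterol and lipid handling Abca1, which exports cholesterol, rose 3.998-fold from 15.4 ± 6.62 to 61.8 ± 4.71 CPM (adjusted p = 0.000910). Idi1, of cholesterol synthesis, fell 7.61-fold to 1.36 ± 0.0988 CPM and Lpl, the lipoprotein lipase, fell 4.77-fold to 46.3 ± 16.8 CPM.

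Of 20 tested fibrillar and associated collagens of the interstitial matrix, 11 rose, 1 fell and 8 did not pass, for a median log2 change of 2.15. Col1a1, a chain of type I collagen, had 3.21, 3.66 and 1.06 CPM untreated and 46.2, 76.8 and 32.0 CPM at day 7, a 19.2-fold rise (log2 change of 4.26 with an SE of 0.66, adjusted p = 0.000749). Col3a1, the chain of type III collagen, had 6.74, 5.66 and 7.45 CPM untreated and 84.2, 95.6 and 41.0 CPM at day 7, an 11.1-fold rise (log2 change of 3.48 with an SE of 0.43, adjusted p = 0.000118). In both collagens day 7 replicate 2 was the highest and replicate 3 the lowest. Col12a1, which coats collagen fibrils, rose 18.8-fold to 47.9 ± 15.9 CPM and Col15a1, of the basement membrane zone, rose 7.07-fold to 29.3 ± 4.98 CPM. The member that fell was Col6a6, an alternative chain of type VI collagen, from 35.7, 28.3 and 22.1 CPM to 0.954, 7.02 and 3.26 CPM (log2 change of -2.94 with an SE of 0.58, adjusted p = 0.00429), and without day 7 replicate 2 the log2 change was -3.77.

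Most of the other matrix genes that were called rose. Of 36 tested matrix glycoproteins and proteoglycans 13 rose and 1 fell, for a median log2 change of 1.29. Fn1, fibronectin, had 7.07, 8.77 and 10.2 CPM untreated and 99.7, 118 and 65.6 CPM at day 7, a 10.9-fold rise (log2 change of 3.44 with an SE of 0.37, adjusted p = 2.90e-05). Mgp, an inhibitor of calcification, rose 10.1-fold to 45.7 ± 7.23 CPM. The count of glycoprotein and proteoglycan genes that rose was 6 without untreated replicate 1, untreated replicate 2 or day 7 replicate 1 and 7 without untreated replicate 3. Of 20 basement membrane genes 4 rose (Col4a2, Nid1, Hspg2 and Sparc), 1 fell and 15 did not pass. The call of Hspg2, the basement membrane proteoglycan perlecan, was lost without untreated replicate 1 or 3 or day 7 replicate 1 or 3 (adjusted p = 0.103 to 0.192). It was also lost with DESeq2 size factors, no filter, only the 6 libraries or the replicate block, and without any 1 day 3 library or day 14 replicate 1 or 2 (0.0504 to 0.0678). Col4a2, a chain of the ubiquitous type IV collagen, rose 3.02-fold, from 35.6 ± 4.18 to 108 ± 25.2 CPM (adjusted p = 0.00278), while Col4a3, a chain of the glomerular type IV collagen, fell 2.83-fold, from 207 ± 19.8 to 73.4 ± 8.68 CPM (adjusted p = 0.00775, and 0.105 by library totals).

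Most called enzymes and inhibitors of matrix turnover rose too. Of 24 metalloproteinases and inhibitors 7 rose and 1 fell. Timp1 and Timp3, both tissue inhibitors of metalloproteinases, moved in opposite directions. Timp1 had 0.0544, 0 and 0 CPM untreated and 2.14, 1.82 and 4.86 CPM at day 7 (adjusted p = 0.000910), and no fold is given because the 3 untreated libraries held 1 read of it in all. Timp3, which is bound to matrix, had 728, 874 and 751 CPM untreated and 244, 292 and 268 CPM at day 7, 2.92-fold lower (log2 change of -1.55 with an SE of 0.21, adjusted p = 0.000210). Serpine2, an inhibitor of plasmin activation, rose 22.2-fold from 0.822 ± 0.256 to 18.6 ± 7.04 CPM (adjusted p = 0.000615).

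Cdh11, 1 of the 2 genes of the series title, is a cadherin of fibroblasts and other mesenchymal cells. It had 3.64, 1.14 and 4.01 CPM untreated and 28.9, 21.2 and 7.04 CPM at day 7, with day 7 replicate 3 nearest to the untreated libraries and no overlap. The rise was 6.59-fold (log2 change of 2.72 with an SE of 0.64, adjusted p = 0.0138), and the call was lost without untreated replicate 2 (adjusted p = 0.0727) or day 7 replicate 1 (adjusted p = 0.07). Acta2, the smooth muscle actin used as the mark of myofibroblasts, had 3.59, 2.66 and 1.94 CPM untreated and 10.2, 3.88 and 7.29 CPM at day 7 and did not pass (log2 change of 1.38 with an SE of 0.75, adjusted p = 0.303). Of 28 genes on the fibroblast and myofibroblast list 6 rose (Pdgfrb, Fap, Cdh11, Ncam1, Ddr2 and Vim) and 1 fell, for a median log2 change of 0.88. The fibroblast count of genes that rose was 3 without untreated replicate 1 and 1 without untreated replicate 2 or day 7 replicate 1. With any 1 of the 6 libraries left out no gene of this list fell. None fell by library totals, with no filter or with the replicate block either. The sum of the fibroblast markers Pdgfra, Pdgfrb and Col1a1 was 12.9 to 32.2 CPM in untreated kidney and 62.8 to 126 CPM at day 7, with 2 of the 3 called. Pdgfra did not pass (adjusted p = 0.434) and overlapped, at 22.3, 3.71 and 3.76 CPM untreated and 12.4, 26.4 and 15.9 CPM at day 7. Pdgfrb passed narrowly (adjusted p = 0.0450), and its call was lost without untreated replicate 1 or 2 or any 1 day 7 library (0.0568 to 0.175).

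Tgfb1, the main profibrotic TGF-beta ligand, had 0.598, 0.618 and 0.877 CPM untreated and 2.47, 1.64 and 2.19 CPM at day 7. It did not pass with TMM (adjusted p = 0.173) and passed by library totals (adjusted p = 0.0451). Of 33 genes of TGF-beta and BMP signalling 3 rose (Tgfb2, Tgfbr1 and Fst) and none fell; none rose without untreated replicate 1 or 2, and 1 rose without day 7 replicate 1. Ccn2, the connective tissue growth factor that TGF-beta induces, rose 2.91-fold from 8.25 ± 2.89 to 24.0 ± 8.15 CPM (adjusted p = 0.0306). Its call was lost without untreated replicate 2 or 3 or day 7 replicate 1 or 3 (adjusted p = 0.13, 0.113, 0.144 and 0.0576). Of 30 genes of Wnt and Notch signalling none was called by edgeR or limma-voom, 1 by DESeq2 and 2 by library totals; 7 had an unadjusted p under 0.05 in edgeR. The median log2 change of the Wnt and Notch genes was 0.60. Among growth factor genes, Csf1, the macrophage growth factor, rose 14.5-fold from 1.09, 1.09 and 0.376 CPM to 9.54, 14.9 and 13.6 CPM (log2 change of 3.85 with an SE of 0.55, adjusted p = 0.000358), and Fgf1, a fibroblast growth factor, fell 3.54-fold to 14.9 ± 2.09 CPM.

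Scaling moved the counts of genes that rose. By library totals 12 of the basement membrane genes rose, 13 of the metalloproteinases and inhibitors, 11 of the fibroblast and myofibroblast genes, 11 of the TGF-beta and BMP signalling genes, 21 of the chemokines and receptors, 23 of the interleukin, TNF and NF-kappaB genes, 14 of the interferon response genes, 11 of the mitosis genes, 11 of the DNA replication genes and 12 of the p53 targets and cell death genes. By the same scaling 14 of the dendritic cell and antigen presentation genes rose, 16 of the immediate early genes and 9 of the tight junction and cadherin genes. No list that rose with TMM had a lower count there.

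**Figure D4:**
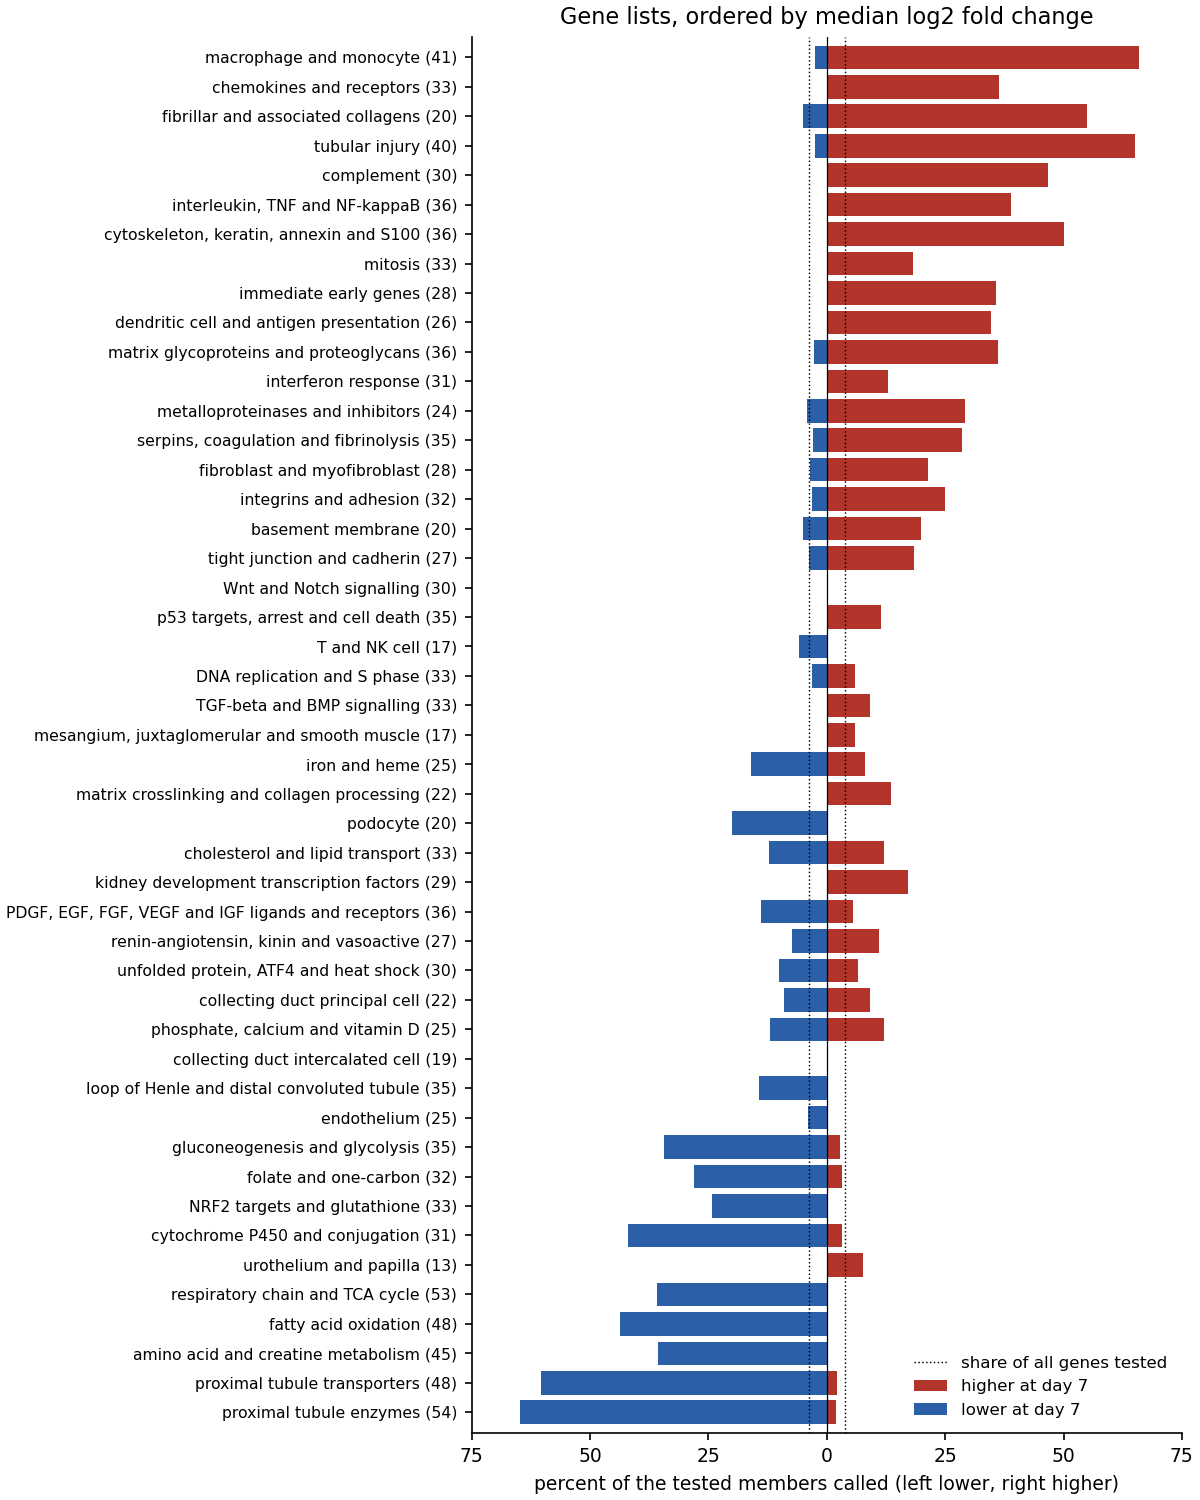
Bars give the percent of each list's tested members (number in parentheses) called higher (red, to the right) or lower (blue, to the left) at day 7, for lists with at least 10 tested members, ordered by median log2 fold change with TMM scaling. Dotted lines mark the 3.87% higher and 3.85% lower among all genes tested. Macrophage and tubular injury lists reach furthest to the right, with 27 of 41 and 26 of 40 members higher.

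Of 41 tested genes of macrophages and monocytes 27 rose, 1 fell and 13 did not pass, for a median log2 change of 3.14. Adgre1, the macrophage surface protein F4/80, had 0.381, 0.737 and 1.57 CPM untreated and 14.0, 15.5 and 7.32 CPM at day 7, a 13.9-fold rise (log2 change of 3.79 with an SE of 0.59, adjusted p = 0.000796), and without untreated replicate 3 the log2 change was 4.40. Itgam, the CD11b integrin of myeloid cells, rose 68.1-fold from 0.326, 0.238 and 0.501 CPM to 30.5, 22.5 and 17.2 CPM (log2 change of 6.09 with an SE of 0.68, adjusted p = 3.85e-05). Lyz2, the myeloid lysozyme, rose 25.9-fold to 137 ± 46.7 CPM. Mrc1, the other gene of the title and the mannose receptor of tissue macrophages, had 1.30, 1.28 and 2.94 CPM untreated and 16.6, 14.1 and 21.2 CPM at day 7. It rose 9.46-fold (log2 change of 3.24 with an SE of 0.57, adjusted p = 0.00174), and the call held without each of the 6 libraries.

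Not every macrophage gene was called. Csf1r, the receptor of the growth factor Csf1, was at 23.7 ± 8.87 CPM untreated and 23.2 ± 5.78 CPM at day 7 (log2 fold change -0.03, SE 0.38). Cd68, a lysosomal protein of macrophages, had 0.326, 2.59 and 1.38 CPM untreated and 5.72, 2.067 and 2.22 CPM at day 7 and did not pass (adjusted p = 0.433), with overlapping groups. Apoe, the lipid carrier that macrophages secrete, rose 9.92-fold from 6.60 ± 3.36 to 66.1 ± 10.4 CPM. Pltp, a phospholipid transfer protein, had 0.435, 1.09 and 0.376 CPM untreated and 2.20, 5.77 and 1.80 CPM at day 7 and did not pass (adjusted p = 0.0801); it passed in DESeq2 (0.0162), by library totals (0.0210) and without day 2 replicate 2 (0.0452). The member that fell was Lpl. The sum of the macrophage markers Adgre1, Csf1r, Cd68 and C1qa ranged from 18.1 to 37.9 CPM untreated and from 35.0 to 50.5 CPM at day 7, with 2 of the 4 called and an overlap between the groups.

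Of 26 tested members of the dendritic cell and antigen presentation list 9 rose, 17 did not pass and none fell, for a median log2 change of 1.37. H2-Ab1, a class II chain, had 5.76, 9.54 and 7.83 CPM untreated and 52.4, 93.0 and 62.4 CPM at day 7, an 8.96-fold rise (log2 change of 3.16 with an SE of 0.45, adjusted p = 0.000342). Cd74, the invariant chain that guides class II molecules, had 49.1, 45.6 and 50.05 CPM untreated and 258, 572 and 351 CPM at day 7, an 8.17-fold rise (log2 change of 3.03 with an SE of 0.42, adjusted p = 0.000300). H2-DMa, which loads peptide, rose 24.9-fold to 11.03 ± 0.0784 CPM. Without untreated replicate 1 the count of the list was 5. Of 17 T and NK cell genes none rose by edgeR, DESeq2 or limma-voom, and the 1 that fell, Trac, rested on untreated replicate 1 with 14.2 CPM (adjusted p = 0.0430, 0.564 without that library, and 0.158, 0.109 and 0.116 without day 7 replicate 1, 2 and 3). Of 9 tested B and plasma cell genes 2 rose (Sdc1, a proteoglycan that epithelia also make, and Ighm, an antibody heavy chain) and 7 did not pass. None rose without untreated replicate 1, untreated replicate 2 or day 7 replicate 1, and 1 rose without untreated replicate 3 or day 7 replicate 2 or 3. The sum of the neutrophil markers S100a8, S100a9 and Ly6g did not exceed 2.32 CPM in any library. S100a8 had 1 read over the untreated libraries and 33 over those at day 7 and did not pass (adjusted p = 0.101). S100a9 went from 1 to 61 reads and Ly6g from 12 to 4, and neither was tested.

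Of 33 chemokines and receptors 12 rose, 21 did not pass and none fell, for a median log2 change of 2.54. Ccl2, which attracts monocytes through Ccr2, had 0.109, 0.0476 and 0.125 CPM untreated and 15.9, 15.1 and 25.5 CPM at day 7, a 215-fold rise (log2 change of 7.75 with an SE of 0.74, adjusted p = 6.57e-06). The untreated values of Ccl2 rest on few reads, so the size of this fold is uncertain. Cxcl1, which attracts neutrophils, had 0.163, 0.262 and 0 CPM untreated and 28.3, 11.9 and 6.28 CPM at day 7, a 90.8-fold rise. Its log2 fold change of 6.51 became 7.42 without untreated replicate 2 and 5.74 without day 7 replicate 1. Of 36 genes of the interleukin, TNF and NF-kappaB list 14 rose and none fell. Icam1, a leukocyte adhesion molecule, rose 9.39-fold to 7.68 ± 3.46 CPM and Socs3, a brake on cytokine signalling, rose 37.3-fold to 3.30 ± 1.98 CPM.

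The rise of C3 in mean CPM was exceeded only by that of Spp1 among called genes with a usual symbol outside the mitochondrial genome. C3, the central complement protein, had 3.04, 4.02 and 3.88 CPM untreated and 665, 628 and 619 CPM at day 7, a 174-fold rise (log2 change of 7.44 with an SE of 0.64, adjusted p = 2.58e-06), and the 3 day 7 values were close together. Of 30 complement genes 14 rose, 16 did not pass and none fell, for a median log2 change of 2.00, and 9 rose without untreated replicate 1, untreated replicate 2 or day 7 replicate 2. C7, of the membrane attack complex, rose 9.15-fold from 0.631 ± 0.211 to 5.92 ± 0.885 CPM, and Cfi, which inactivates C3b, rose 16.7-fold to 6.18 ± 1.34 CPM. Of 31 interferon response genes 4 rose (Ifit2, Gbp2, Gbp3 and Ifi27) and none fell. The interferon count was 2 without untreated replicate 1, 2 or 3 or day 7 replicate 2. Among serpins and coagulation genes 10 of 35 rose and 1 fell; Serpina10, an inhibitor of coagulation factor X, had 0.0544, 0.119 and 0 CPM untreated and 14.6, 16.4 and 7.53 CPM at day 7 (log2 change of 7.37 with an SE of 0.60, adjusted p = 1.71e-06), and without untreated replicate 2 the log2 change was 8.59.

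Of 33 mitosis genes 6 rose (Mki67, Top2a, Ccnb2, Aurkb, Foxm1 and Anln), 27 did not pass and none fell, for a median log2 change of 1.49. Mki67, the proliferation antigen, had 4.40, 6.11 and 1.57 CPM untreated and 13.9, 13.4 and 12.8 CPM at day 7, a 3.28-fold rise (log2 change of 1.71 with an SE of 0.40, adjusted p = 0.0136), with the 3 day 7 libraries close together. The mitosis count was 3 without untreated replicate 1, untreated replicate 3 or day 7 replicate 2, and 2 without untreated replicate 2 or day 7 replicate 1. Of 33 genes of DNA replication 2 rose (Mcm3 and Uhrf1), 1 fell and 30 did not pass. These counts lay near the 3.87% higher and 3.85% lower among all genes tested. Without untreated replicate 1 the number that rose was 1. It was 3 without untreated replicate 3 and 4 without day 7 replicate 3, and DESeq2 called 8 higher. Of 28 immediate early genes 10 rose and none fell, for a median log2 change of 1.47. Klf6, a zinc finger factor, rose 7.12-fold from 9.30 ± 1.61 to 66.3 ± 20.2 CPM (adjusted p = 0.000858). The count of immediate early genes was 3 without untreated replicate 1 or day 7 replicate 1, 6 without untreated replicate 2 and 2 without untreated replicate 3. Of 35 p53 targets and cell death genes 4 rose, and none rose without untreated replicate 1, untreated replicate 3 or day 7 replicate 1; 1 rose without untreated replicate 2 and 2 without day 7 replicate 2.

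Among integrins and adhesion genes 8 of 32 rose and 1 fell, for a median log2 change of 0.83. Leaving out 1 of the 6 libraries gave 4 to 8 that rose. Renin-angiotensin, kinin and vasoactive genes had 3 of 27 higher and 2 lower, for a median log2 change of -0.08. With 1 of the 6 libraries left out 1 to 3 of these were higher and 0 to 1 lower. Cldn1, a tight junction protein of the parietal epithelium, rose 4.27-fold from 10.5, 15.6 and 19.98 CPM to 53.4, 72.2 and 71.1 CPM (log2 change of 2.09 with an SE of 0.34, adjusted p = 0.00101). On the tight junction and cadherin list 5 of 27 rose and 1 fell, and 3 rose without untreated replicate 2 or day 7 replicate 1. Edn1, the vasoconstrictor endothelin 1, rose 22.5-fold from 0.109, 0.119 and 1.32 CPM to 14.7, 7.23 and 10.3 CPM (log2 change of 4.49 with an SE of 0.72, adjusted p = 0.000932), and the log2 change was 6.49 without untreated replicate 3.

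Some called genes had no read in 1 of the groups: 32 of those that rose had none in untreated kidney and 1 that fell, Hbb-bt, had none at day 7. For these a fold is a lower bound, computed against 3 counts over the group, which covers counting error only. Egr2, an early growth response factor, had 1.64, 2.39 and 2.05 CPM at day 7 and was at least 51.4-fold higher. Ccl20, a chemokine for dendritic cells and lymphocytes, was at least 36.8-fold higher at 1.42 ± 0.836 CPM, and limma-voom did not call it (adjusted p = 0.0633). Krt15, a keratin of stratified epithelium, was at least 73.2-fold higher, but its day 7 values were 7.86, 0.321 and 0.104 CPM and the adjusted p was 0.189 without day 7 replicate 1 and 0.0723, 0.0916 and 0.0649 without untreated replicate 1, 2 and 3. Hbb-bt, an adult beta globin, had 0.652, 0.357 and 0.0626 CPM untreated, was at least 10.7-fold lower at day 7, and was not called without any 1 of the 6 libraries (adjusted p = 0.0564 to 0.148).

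Other calls rested on 1 library of 3. In 65 called genes, 41 higher and 24 lower, the highest library of the higher group was over 5 times the next. Day 7 replicate 1 was that library for 23 genes and untreated replicate 2 for 12. Def6, an adaptor of T cell signalling, had 72.5, 1.46 and 0.937 CPM at day 7 against 0.486 ± 0.0459 CPM untreated, and dropping day 7 replicate 1 took the log2 change from 5.66 to 1.29 (adjusted p = 0.669). Its call was also lost without untreated replicate 1, 2 or 3 (adjusted p = 0.104, 0.103 and 0.0923). Pde9a, a phosphodiesterase, had 10.6, 79.2 and 6.95 CPM untreated and 2.01, 2.39 and 4.09 CPM at day 7, and without untreated replicate 2 the log2 change was -1.64 (adjusted p = 0.247). Without day 7 replicate 1 or 2 the adjusted p of Pde9a was 0.0852 and 0.0681.

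Against the time points on either side few genes were called. Between day 7 and day 3, a comparison with no untreated library, 3 genes were called (0.0178%), all higher at day 7, with 1698 under 0.05 before adjustment; DESeq2 called 218. Nid1, which links laminin to type IV collagen in basement membrane, had 24.4, 36.3 and 29.3 CPM at day 3 and 94.8, 70.0 and 142 CPM at day 7, 3.41-fold higher (log2 fold change 1.77, SE 0.27, adjusted p = 0.0323). Its day 3 values overlapped those of untreated kidney (30.6, 21.7 and 29.9 CPM). Sema3d, a secreted guidance semaphorin, had 0.431, 0.909 and 0.367 CPM at day 3 and 10.6, 9.37 and 17.2 CPM at day 7 (log2 fold change 4.45, SE 0.67, adjusted p = 0.0323). Tmem119, a membrane protein of bone-forming cells and microglia, had 0.431, 0.341 and 0.210 CPM at day 3 and 6.22, 8.20 and 5.52 CPM at day 7 (log2 fold change 4.33, SE 0.72, adjusted p = 0.0481). In untreated kidney Sema3d had 0.870, 2.85 and 1.63 CPM and Tmem119 had 1.09, 1.14 and 1.63 CPM. All Tmem119 values at day 3 thus lay below the untreated ones. Against untreated kidney the day 7 log2 fold change was 2.77 for Sema3d and 2.37 for Tmem119. Day 3 and day 7 values did not overlap in any of the 3 genes. No gene was called by library totals, without day 7 replicate 1 or 3, without any 1 of the day 3 libraries, or without untreated replicate 3 or day 14 replicate 2 or 3; 1 was called without untreated replicate 1 or day 14 replicate 1, and 6 without day 2 replicate 2.

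From day 7 to day 14, again with no untreated library, 3 genes were called (0.0178%), with 1588 under 0.05 before adjustment; DESeq2 called 149. Havcr1 fell to 32.0, 25.2 and 42.6 CPM at day 14, 4.98-fold lower than at day 7 (log2 fold change -2.32, SE 0.33, adjusted p = 0.0215). Plscr1, an interferon-inducible phospholipid scramblase, had 32.3, 24.3 and 42.1 CPM at day 7 and 10.2, 7.34 and 9.05 CPM at day 14, 3.71-fold lower (log2 fold change -1.89, SE 0.29, adjusted p = 0.0269). Dnase1 rose from 28.1, 47.9 and 22.3 CPM to 236, 279 and 106 CPM, 6.32-fold (log2 fold change 2.66, SE 0.43, adjusted p = 0.0339). The call of Dnase1 was lost by library totals, with the replicate block and without untreated replicate 1, 2 or 3. It was also lost without day 7 replicate 1 or 3 or day 3 replicate 1. Only 1 of the 3 calls was kept with the replicate block or without day 7 replicate 1 or day 3 replicate 1. Without day 7 replicate 3 none of the 3 was kept, so Havcr1 and Plscr1 were lost there too. Without day 14 replicate 1 or 2 no gene was called, 56 were called without day 14 replicate 3, 5 without day 7 replicate 2 and 1 without day 7 replicate 3 or day 3 replicate 1. Cdh11 was at 19.1 ± 11.1 CPM at day 7 and 33.6 ± 9.22 CPM at day 14, and Mrc1 at 17.3 ± 3.59 CPM and 10.2 ± 6.71 CPM; neither passed between the 2 times (adjusted p = 0.762 and 0.738).

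**Figure D5:**
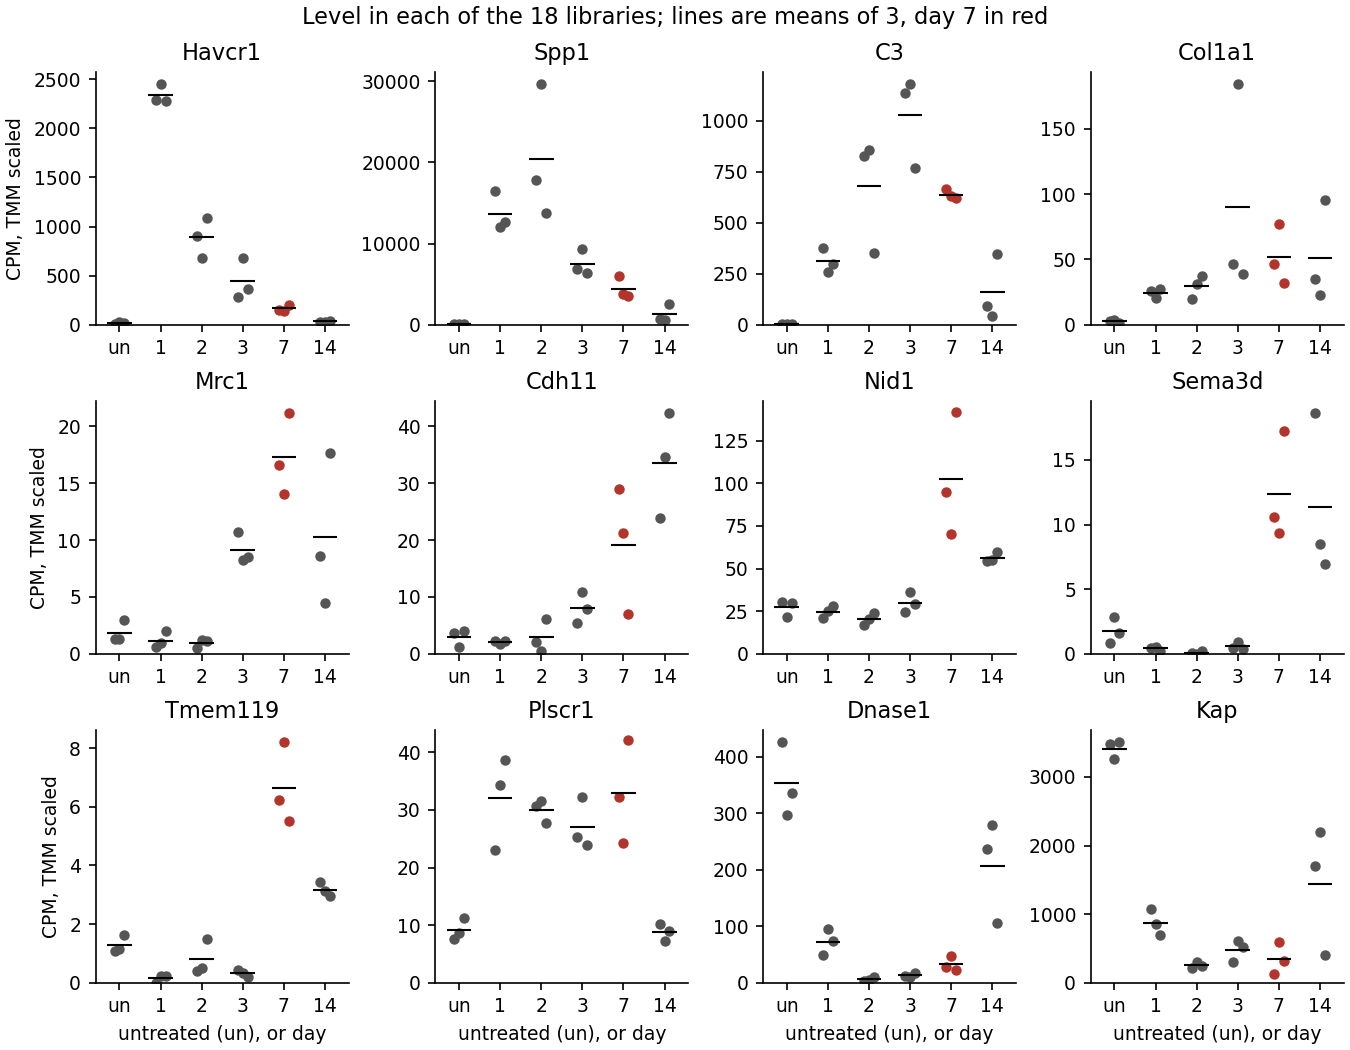
Each panel shows 1 gene in all 18 libraries, with the group on the horizontal axis (untreated, then days 1, 2, 3, 7 and 14) and CPM on a linear vertical axis from 0; points are libraries, lines are means of 3, and day 7 is red. Havcr1 declines from day 1 to day 14, Nid1, Sema3d and Tmem119 are higher at day 7 than at day 3, and Kap lies below its untreated values in every later library.

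Reads that aligned to more than 1 place were tallied apart from genes, so genes with near-identical copies, among them Lyz2, Fth1, Tmsb10, Cyp4a12a, Acsm2, Ugt2b38, Slc22a30 and the class II genes, are uncertain. Whether counting used strand is not given in the sources used here. An exon of a gene on the other strand, in the GENCODE M21 annotation, overlaps 60 of the 234 genes that the naming rule picked, among them Vcam1, Cp, H2-DMa, Fn1, Col4a2, Nid1, Icam1, Slc34a1, Timp3, Egf, Dnase1 and Edn1, whose values may hold reads of that gene.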

How the data were processed

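Total RNA of whole mouse kidney was amplified to cDNA and sequenced in 6 groups of 3 libraries. The authors deposited 1 table of read counts per library, and the submitters' processing notes name cutadapt, TopHat2 2.07, HTSeq, DESeq and the build NCBIM37 with no roles. The counts are whole numbers per Ensembl gene. The 5 tally rows that name no gene (34.5 to 49.2% of reads in the 6 libraries compared) were left out of library sizes and tests. Symbols came from GENCODE M21 for 32919 of 37991 identifiers. No gene coordinates were taken from it. Some genes are not reported here.

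All 18 libraries were fitted together with edgeR 4.0.16 (filterByExpr, TMM, quasi-likelihood F test, Benjamini-Hochberg adjusted p under 0.05) in R 4.3.3, and the contrast was day 7 minus untreated. The fit was tested on simulated counts. Alternatives were DESeq2 size factors, library totals, no filter, a minimum of 1 CPM in 3 libraries, DESeq2 1.42.0, limma-voom (limma 3.58.1), only the 6 libraries, a replicate block, no mitochondrial genes and each untreated, day 3, day 7 and day 14 library left out in turn. Leaving out day 2 replicate 2 was added after seeing the data.

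Genes named were the 15 largest fold changes each way among called genes with a usual symbol whose higher group averaged 10 CPM or more and whose groups did not overlap; the 10 largest differences in CPM each way; up to 5 called members of each list in its main direction and 3 in the other; and a fixed set that included Cdh11 and Mrc1. The members and the 52 gene lists (1678 entries, 15 of them not found) were chosen with earlier results of these data known.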

Additional observations from a re-analysis of the deposited data

Results flagged for a closer look

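Reads that aligned outside annotated genes were not used in any comparison. They made up 22.7% of all reads in the tables at day 7 (mean of 3 libraries, 21.7 to 23.6%) and 15.7% in untreated kidney (13.8 to 16.8%), so the day 7 libraries lay above all untreated ones. Which sequences these reads came from was not tested.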

How the results depend on the processing

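The 1298 genes called (651 higher, 647 lower) became 2565 (2390 higher, 175 lower) by library totals and 2162 (1125 higher, 1037 lower) in DESeq2. Leaving out 1 of the 6 libraries compared gave 607 to 1014 called, 312 to 576 higher and 234 to 496 lower, with the lowest total without day 7 replicate 1. Leaving out a day 3 or day 14 library gave 1129 to 1367 called. Without day 2 replicate 2, 1508 were called, 747 higher and 761 lower. The replicate block gave 1078 called. Deviations of same-numbered untreated and day 7 libraries correlated at -0.017, 0.00011 and -0.031, so no pairing was seen across genes. A pairing that touches only some genes could not be seen this way. Against day 3 the 3 calls became 0 by library totals, 48 with no filter, 218 in DESeq2, 11 in limma-voom, 0 to 2 with 1 untreated, day 3, day 7 or day 14 library left out and 6 without day 2 replicate 2. From day 7 to day 14 the 3 calls became 32 with no filter, 149 in DESeq2, 1 with the replicate block and 0 to 56 with 1 untreated, day 3, day 7 or day 14 library left out. The difference in mitochondrial share was -12.4 percentage points with reads outside genes in the denominator, and -9.34 to -6.12 with 1 of the 6 libraries left out. No named call reversed under any setting run. Of 227 named genes called, 122 passed with each of the 6 libraries left out, 40 were lost by library totals, 32 in limma-voom and 25 with the replicate block. Genes under about 1 CPM rest on few reads, since 5.41 to 14.6 M reads per library fell outside the mitochondrial genome.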
